A study of Rattus norvegicus with 4 samples.

Results

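Matricellular and related matrix glycoprotein genes were followed in 2 clones of PC12, a rat cell line of adrenal chromaffin tumour origin that stores and releases catecholamines. The genes were chosen by name, with earlier results of these data known. They were 10 symbols looked up in the count files: Fn1, Sparc, Thbs1, Thbs2, Thbs4, Tnc, Postn, Matn3, Ccdc80 and Spp1. Of these, 7 had a row of counts among the 25810 genes listed, and 6 entered the comparison of the clones, in which 13726 genes were tested. Thbs1, Tnc and Spp1 had no row under those symbols and were not analysed here, and rows that carry a protein entry name in place of a symbol were not matched to genes. Postn had a row, but no read in wtPC12, and is described by its counts.

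The wtPC12 cells, labelled as wild type with low REST, and the hrPC12 cells, labelled as high REST, were each represented by 2 RNA-Seq libraries. Both are clones of the same line, the high level of REST in hrPC12 is spontaneous, and no treatment, culture age or transgene is named for either. Each REST level is thus 1 clone, so that the level of REST cannot be told apart from whatever else distinguishes them. Replicate numbers used here follow the order of the records, are not those of the study and pair no libraries. The labels do not say that the 2 libraries of a clone came from separate cultures, so the p values measure only the spread between these libraries. Rest itself, coding for the repressor that names the clones, had 43.0 and 132 normalized counts in the wtPC12 libraries and 964 and 915 in the hrPC12 libraries. Its log2 fold change (hrPC12/wtPC12) was 3.42, and its adjusted p value of 0.01155 (edgeR) missed the threshold of 0.01 used below.

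Matricellular proteins are secreted into the extracellular matrix, where most of them act on cell adhesion, growth factor availability and matrix assembly rather than as load-bearing structure. They bind integrins, syndecans, CD44, CD47 and other surface receptors, and are typically abundant in developing, wounded and mesenchymal tissue. Thrombospondins (Thbs), tenascins (Tn), the SPARC family, periostin (Postn) and osteopontin (Spp1) are the classical families. Fibronectin (Fn1) and matrilin 3 (Matn3) are instead structural, the first forming fibrils that cells attach to through integrins and the second connecting matrix components of cartilage. For brevity, captions and counts below include both under the matricellular genes. Ccdc80 codes for a secreted protein that associates with the matrix.

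RefSeq promoter windows of the rat assembly GRCr8 were found for 8 of the 10 genes, 5 of which had counts. Fn1 and Thbs2 had no entry. The 250 bases before the annotated start are shown for 4 of the 5, to set the gene with the largest fold change, Ccdc80 (chr11:69224845-69225094, minus strand), and the gene without any read in wtPC12, Postn (chr2:140677811-140678060, plus strand), beside Matn3 (chr6:37467479-37467728, plus strand) and Thbs4 (chr2:25760346-25760595, minus strand). All are written 5′ to 3′ on the strand of the gene, and capitals mark the letters that matched a motif on either strand.
Ccdc80: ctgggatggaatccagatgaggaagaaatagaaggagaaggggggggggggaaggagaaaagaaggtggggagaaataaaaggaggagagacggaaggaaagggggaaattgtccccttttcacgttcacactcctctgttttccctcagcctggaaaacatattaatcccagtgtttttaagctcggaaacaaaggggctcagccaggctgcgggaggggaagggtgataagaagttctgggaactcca
Postn: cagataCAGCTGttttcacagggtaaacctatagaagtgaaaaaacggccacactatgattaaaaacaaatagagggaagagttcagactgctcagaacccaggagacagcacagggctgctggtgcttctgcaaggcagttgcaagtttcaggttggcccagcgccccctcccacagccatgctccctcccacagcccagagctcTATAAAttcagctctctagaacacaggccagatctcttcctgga
Matn3: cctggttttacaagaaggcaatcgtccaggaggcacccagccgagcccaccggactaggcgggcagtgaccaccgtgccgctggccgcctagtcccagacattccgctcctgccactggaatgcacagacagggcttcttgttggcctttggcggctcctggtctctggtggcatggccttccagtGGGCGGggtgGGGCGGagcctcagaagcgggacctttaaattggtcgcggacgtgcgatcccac
Thbs4: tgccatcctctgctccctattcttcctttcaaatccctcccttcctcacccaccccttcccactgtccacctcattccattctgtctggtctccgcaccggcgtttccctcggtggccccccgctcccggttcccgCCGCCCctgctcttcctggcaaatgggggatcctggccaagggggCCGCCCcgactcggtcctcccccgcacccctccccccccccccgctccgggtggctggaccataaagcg
The windows differed in base composition. G and C made up 50.4% of the Ccdc80 window and 50.8% of the Postn window, near the median of 51.2% over 33469 promoters, and 64% in Matn3 and 67.6% in Thbs4. The Sparc window (chr10:40038817-40039066, minus strand) held 60% G and C. The CG dinucleotide occurred 16 times in Matn3 and 15 times in Thbs4, but 4 times in Ccdc80 and 2 times in each of Postn and Sparc (median of all promoters 5).

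The motifs searched on both strands were TATAAA, the AP-1 site TGANTCA, the E-boxes CAGCTG and CAGGTG, the GC box GGGCGG, the CArG box, the Smad palindrome GTCTAGAC, and TTCAGCACC and GGACAGCG, taken as the left and right parts of the RE-1 element to which REST binds. The GC box was found 2 times in Thbs4 and 2 times in Matn3, and at least once in 30.47% of all promoters. Postn held TATAAA beginning 44 bases before its annotated start, a motif present in 12.93% of promoters, and CAGCTG beginning 244 bases before it (11.97%). Sparc held CAGGTG, found in 15.9% of promoters, beginning 241 bases before the start. No letters searched for were found in the Ccdc80 window. The AP-1 site (6.34% of promoters), the CArG box (1.497%), the Smad palindrome (0.1733%) and the RE-1 parts (0.3048% and 0.977%) matched none of these 5 windows. A match is a description of letters and not of a bound site, and windows without one say nothing about a factor.

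The clones differed most in Ccdc80 and Thbs2, which were read at a low level in wtPC12 and were among the 30 most upregulated of the tested genes in hrPC12. Fn1, Sparc and Matn3 were also upregulated, Thbs4 missed the threshold on the adj. p value, and Postn was read in hrPC12 only. Upregulated here means a log2 FC (hrPC12/wtPC12) above 2 and an adj. p value under 0.01, computed with edgeR (quasi-likelihood F test) and adjusted after Benjamini and Hochberg over all tested genes. By this rule 5 of the 10 genes listed, which are 5 of the 6 tested, were upregulated and 0 downregulated, where 4.84% of all tested genes were upregulated and 5.46% downregulated (10.3% in either direction). All 6 had an unadjusted p under 0.05, as did 46.3% of all tested genes, and a log2 FC above 2, found in 8.67% of them. An adj. p value under 0.01 whatever the fold change was reached by 5 higher and 0 lower, against 5.94% and 7.14% of all. The count depended on the wtPC12 libraries. Without wtPC12 replicate 1 it was 4, and without wtPC12 replicate 2 edgeR called 0 of the 5 that could be tested, all of which, like 6798 of all 13590 genes then tested, had an unadjusted p under 0.05. DESeq2 called 4 of the 5. Fn1 and Matn3 had a mean under 5 normalized counts in wtPC12 and reached the filter on low counts through hrPC12 alone, so they could enter the test only with a difference, and the count over the tested genes carries no support of its own. In the 6 tested genes both hrPC12 libraries lay above both wtPC12 libraries, as they did in 37.9% of all tested genes, while in 35.6% both lay below. Both hrPC12 libraries were also above in Postn, which was not tested and is set against counts of 0.

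**Figure D1:**
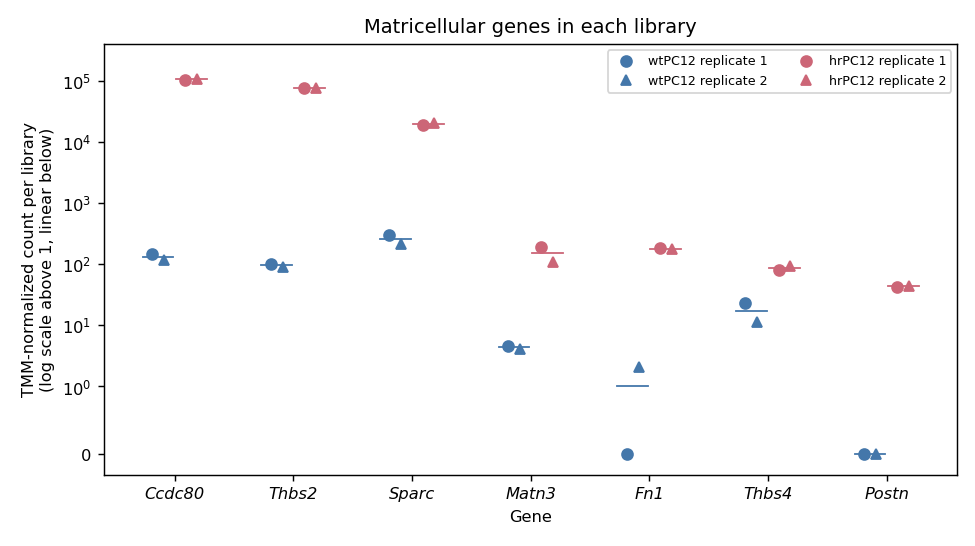
TMM-normalized counts (log scale above 1, linear below) of the 7 genes with a row, with a symbol for each library and a line at the mean of each clone. In all 7 genes the hrPC12 libraries lie above the wtPC12 libraries, and the distance is smallest in Thbs4.

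Ccdc80, here and below with replicate 1 given before replicate 2, had 144 and 115 normalized counts in the wtPC12 libraries against 103027 and 108776 in those of hrPC12. The difference between the hrPC12 libraries was small beside that between the clones. The fitted log2 FC was 9.67 (standard error 0.33, 95% interval 8.83 to 10.51, adjusted p = 0.000243, edgeR), or 816-fold. Alone, this gene took 0.447% and 0.497% of the reads on genes in the hrPC12 libraries, against 0.000591% and 0.000509% in wtPC12.

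Thbs2 codes for thrombospondin 2, a trimeric thrombospondin that binds CD36 and CD47 and limits angiogenesis. Its normalized counts were 102 and 89.6 in wtPC12 and 77073 and 77225 in hrPC12, and the libraries within each clone nearly coincided. It was 803-fold higher in hrPC12, with a log2 FC of 9.65 (standard error 0.29, 95% interval 8.90 to 10.40, adjusted p = 0.000243, edgeR). The reads of Thbs2 were 0.334% and 0.353% of those on genes in hrPC12. The wtPC12 mean was 0.124% of the hrPC12 mean.

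Thbs4, coding for the pentameric thrombospondin 4 of tendon, muscle and nervous tissue, behaved otherwise. With 20 and 11 reads it had 23.3 and 11.3 normalized counts in wtPC12, and with 95 and 94 reads 80.4 and 95.1 in hrPC12. The clones did not overlap, and wtPC12 replicate 2 was at 0.487 of replicate 1. The log2 FC of 2.34 (standard error 0.48, 95% interval 1.11 to 3.58) had an adj. p value of 0.0214 in edgeR, which missed the threshold. It passed when libraries were scaled by their totals (0.00959), when no filter on low counts was set (0.00745), with DESeq2 (0.00445) and without hrPC12 replicate 1 (0.00289). Over all alternatives the adj. p value ranged from 0.00289 to 0.135. The intervals of the log2 FC of Thbs2 and Thbs4 did not overlap.

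Sparc codes for osteonectin, a collagen-binding glycoprotein of bone and of remodelling tissue. Its normalized counts were 305 and 214 in wtPC12 and 18917 and 20368 in hrPC12. The fold change of 75.7 was large beside the spread within either clone, with a log2 FC of 6.24 (standard error 0.28, 95% interval 5.52 to 6.96, adjusted p = 0.000373, edgeR).

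Fn1, the fibronectin gene, had 0 and 2 reads in wtPC12 and 216 and 173 in hrPC12. This corresponds to 0 and 2.06 normalized counts in wtPC12, which is close to no detection, and to 183 and 175 in hrPC12. The fit gave Fn1 a log2 FC of 7.21 (standard error 0.74, 95% interval 5.33 to 9.08, adjusted p = 0.00269, edgeR). From the 2 reads in wtPC12 the ratio of the clones was 164, with an exact 95% counting interval of 45.1 to 1359.8, so its size is loosely determined. A prior count of 2 gave 5.88 on the log2 scale, and leaving out wtPC12 replicate 1 gave 6.33. Without wtPC12 replicate 2, the library that held both reads, Fn1 could not be tested.

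Postn, coding for periostin, a ligand of integrins in periodontal, cardiac and fibrous tissue, had 0 reads in each wtPC12 library. In hrPC12 it had 51 and 44 reads, or 43.2 and 44.5 normalized counts. Taking 3 reads over both wtPC12 libraries as the limit that a count of 0 allows, Postn in hrPC12 lay 26.7-fold above it. This takes the hrPC12 reads as exact, and the lower end of the exact 95% counting interval of the ratio was 21.3. The filter of the study, which asks for reads in both clones, left it out of the test. Under filters that let it in, its adj. p value was 0.000866 (every gene with a read) and 0.0051 (filterByExpr, both edgeR), but Postn enters them through hrPC12 alone and is set against counts of 0, so these values carry no support of their own.

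Matn3 had 4 and 4 reads in wtPC12, which are 4.65 and 4.12 normalized counts, and 228 and 109 reads in hrPC12, which are 193 and 110.3. It was the one of the 7 genes in which the hrPC12 libraries differed clearly, by 1.75-fold, whereas in the others their ratio lay between 0.846 and 1.04. The log2 FC was 5.08 (standard error 0.53, 95% interval 3.71 to 6.44, adjusted p = 0.00297, edgeR), or 33.8-fold. Without hrPC12 replicate 1 it was 4.61. Without wtPC12 replicate 1 its adj. p value was 0.0105, which missed the threshold.

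The neighbours of Matn3 along the chromosome shared the difference between the hrPC12 libraries. Tested genes with a mean of at least 50 normalized counts were placed by symbol in the order of GRCr8, a newer assembly than that of the counts. Of the 30 genes around Matn3, 15 on each side, 29 had a log2 ratio of hrPC12 replicate 1 to replicate 2 above 0.4, with a median of 0.85, and that of Matn3 was 0.80. The median of the 6 nearest neighbours was 0.77, and 9.95% of the 7868 genes so placed had a higher one. Thbs2 lay at the edge of such a stretch, since the 15 genes before it had ratios from 0.50 to 0.99 (median 0.85), the 15 after it a median of 0.09, and Thbs2 itself 0.00. Around Ccdc80, Sparc, Fn1 and Thbs4, 2, 0, 3 and 4 of the 30 neighbours were above 0.4. How far the ratio of its neighbours enters the value of Matn3 was not tested.

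**Figure D2:**
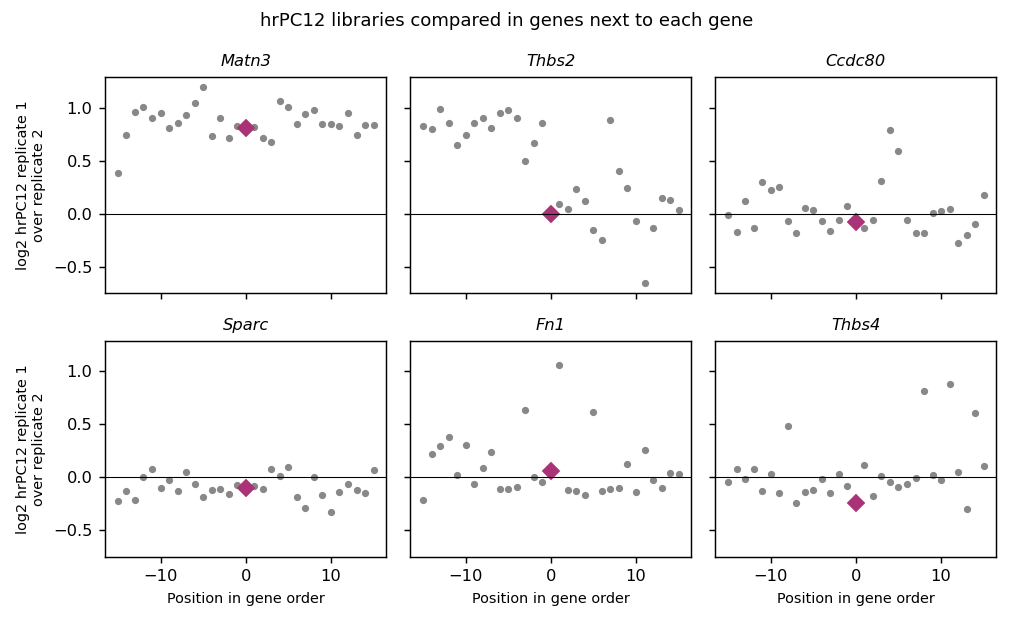
The log2 ratio of hrPC12 replicate 1 to hrPC12 replicate 2 (vertical axis) for the 15 genes on each side of a gene in chromosomal order (horizontal axis, in genes), with the named gene as a diamond. The ratio is near 0.85 on both sides of Matn3 and on one side of Thbs2, and near 0 around the other genes.

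Ordered by log2 FC, Ccdc80 (place 25 of 13726 from the top), Thbs2 (28), Fn1 (155), Sparc (222), Matn3 (323) and Thbs4 (968) followed each other. Ccdc80 and Thbs2 differed by far less than either interval. Fn1 had an interval that overlapped those of Ccdc80, Thbs2, Sparc and Matn3, and its place between them is not determined. The intervals of Sparc and Matn3 overlapped as well, while that of Sparc lay below those of Ccdc80 and Thbs2, and that of Thbs4 below that of Matn3. A log2 FC of at least 5 was found in 2.4% of all tested genes. The median over the 6 tested genes was 6.73, and 0.06 over all tested genes. The first of these medians includes Fn1 and Matn3, which reached the filter on low counts through hrPC12 alone, so it is a description. The 7 genes together held 498 and 424 reads in the wtPC12 libraries, or 0.00237% and 0.00193% of the reads on genes, and 0.865% and 0.945% in the hrPC12 libraries. In such bulk RNA a larger number of cells with these transcripts and more transcript per cell cannot be told apart.

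**Figure D3:**
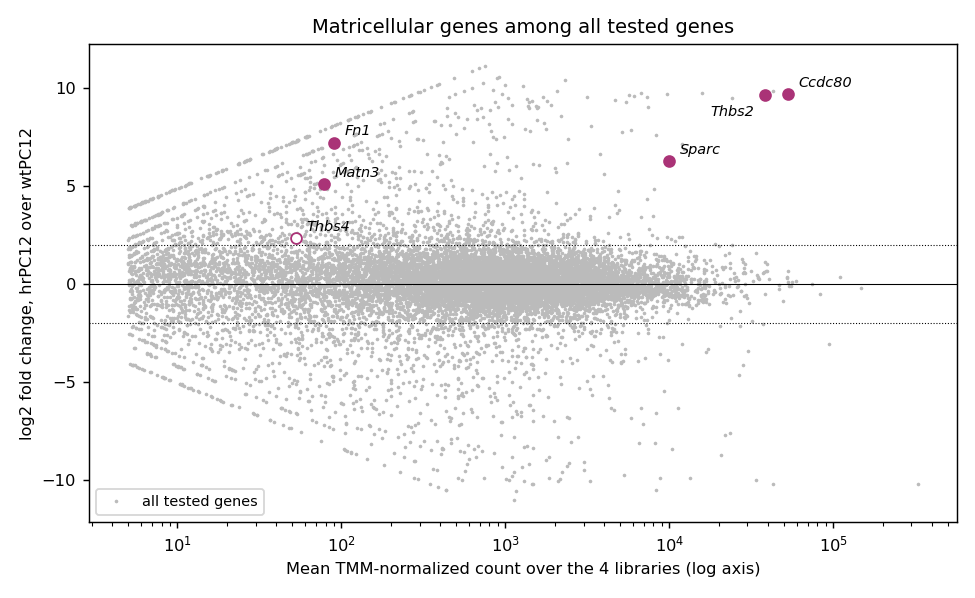
Log2 FC (hrPC12/wtPC12) against the mean TMM-normalized count over the 4 libraries (log axis) for the 13726 tested genes, with the 6 tested matricellular genes named. Dotted lines mark a log2 FC of 2 in either direction, filled circles passed both thresholds, and Ccdc80, Thbs2 and Sparc lie at high counts where few genes have a comparable log2 FC.

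Other members of the same families were divided between the clones. Of 23 further genes of the matricellular families, 18 had a row, 6 of these had no read in any library, and 9 were tested. Where 4.84% of all tested genes were upregulated and 5.46% downregulated, 4 of these 9 were upregulated and 3 downregulated. Their median log2 FC was 1.83. As with Fn1 and Matn3, some of these genes passed the filter on low counts through the clone in which they were high (Cyr61 and Wisp1 through hrPC12, Tnr and Spock1 through wtPC12), so the counts are a description. The SPARC family was among those that split. Spock1 and Spock2, which code for testican proteoglycans of the nervous system, were both downregulated, opposite to Sparc. Spock1 had 178 and 215 normalized counts in wtPC12 and 2.54 and 3.04 in hrPC12 (log2 FC −6.09, standard error 0.44). Spock2 had 629 and 1323 in wtPC12 and 49.1 and 55.7 in hrPC12 (log2 FC −4.22, standard error 0.47). Sparcl1 and Spock3 had no read.

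The tenascins split likewise. Tnr, the tenascin of the central nervous system, had 521 and 2187 normalized counts in wtPC12 and 1.69 and 7.08 in hrPC12. The log2 FC was −8.29 (standard error 1.09, adjusted p = 0.0058, edgeR). Its wtPC12 libraries differed strongly. Tnn, a tenascin known from bone and kidney, had 16.3 and 19.6 in wtPC12 and 427.5 and 398 in hrPC12, and its log2 FC was 4.51 (standard error 0.33). Both directions exceeded the spread between libraries.

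Among the CCN proteins, which are small secreted regulators of adhesion, Cyr61 and Wisp1 were upregulated, both of which reached the filter on low counts through hrPC12 alone. Cyr61 held 3 reads over both wtPC12 libraries and had 215 and 139 normalized counts in hrPC12, a ratio of 110 with an exact 95% counting interval of 37.4 to 536. For Wisp1, with 1 read in wtPC12 and 77.9 and 83.0 normalized counts in hrPC12, the ratio was 147 (26.0 to 5831). Ctgf had at most 1 read in any library, and Nov none. Wisp2 (log2 FC 1.75, standard error 1.10) did not pass, nor did Fstl1, the follistatin-like member of the SPARC family (log2 FC 1.83, standard error 0.48). Tgfbi, which codes for a matrix protein related to periostin, rose from 122 and 115 to 1354 and 1415 normalized counts. The log2 FC of Tgfbi was 3.54 (standard error 0.23, adjusted p = 0.000776, edgeR).

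The structural matrix glycoproteins gave a mixed picture. Of 31 listed, 22 had a row and 12 were tested, with a median log2 FC of 0.60. Where 4.84% of all tested genes were upregulated and 5.46% downregulated, 4 of the 12 were upregulated, 1 downregulated and 7 neither. Those upregulated were Fbln2, a fibulin that reached the filter through hrPC12 alone (log2 FC 6.84), Pcolce, an enhancer of procollagen processing (5.08), Ltbp2, a microfibril-associated protein (3.60), and the nidogen gene Nid2 (3.19). Without wtPC12 replicate 1 the number upregulated was 2, and without wtPC12 replicate 2 edgeR called 0 in this and the other lists. Fbn1, which codes for fibrillin of microfibrils, was downregulated, from 489 and 1038 to 38.1 and 43.5 normalized counts (log2 FC −4.22, standard error 0.48). The abundant Ltbp3 (log2 FC −0.69), Fbln1 (0.37), Efemp2 (0.85) and Emilin1 (0.83) did not pass. Neither did Ecm1 (−1.56) or Fbln7 (−4.24, standard error 0.95). Fbln7 had 20 reads in wtPC12 and 1 in hrPC12, and reached the filter through wtPC12 alone. In Fbln1 and Emilin1, as in Matn3, hrPC12 replicate 1 was above replicate 2, by 1.75-fold and 1.79-fold. Among the other matrilins, Matn1 was like Postn in having no read in wtPC12, and was not tested. It had 35.6 and 43.5 normalized counts in hrPC12, 23.9-fold above the limit of 3 reads (lower end of the exact 95% counting interval 19.0). For Matn4 the log2 FC was −0.66 (standard error 0.62).

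Of 17 receptors for these glycoproteins, 12 had a row and 7 were tested, of which 2 were upregulated and 0 downregulated, where the shares of all tested genes were 4.84% and 5.46% (5 of the 7 did not pass, median log2 FC 0.62). Itga5, the alpha subunit of the main fibronectin receptor, had 32.6 and 41.2 normalized counts in wtPC12 and 1047 and 1048 in hrPC12 (log2 FC 4.82, standard error 0.28). Cd44, a receptor for hyaluronan and osteopontin that reached the filter through hrPC12 alone, had 3.49 and 2.06 in wtPC12 and 320.0 and 319 in hrPC12 (log2 FC 6.80, standard error 0.43). The common beta subunit Itgb1 passed the threshold on the adj. p value (0.00832, edgeR) but, at a log2 FC of 1.20 and a standard error of 0.18, not that on the fold change. The integrin subunit Itga4 was read in hrPC12 only, at 40.6 and 39.5 normalized counts, and was not tested. Its level was 24.5-fold above the limit in wtPC12 (lower end of the exact 95% counting interval 19.5). Cd47, the thrombospondin receptor, had a log2 FC of 0.16 with a 95% interval of −0.57 to 0.89, and Lrp1, Sdc1 and Sdc4 had 0.62, 0.44 and −0.34.

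**Figure D4:**
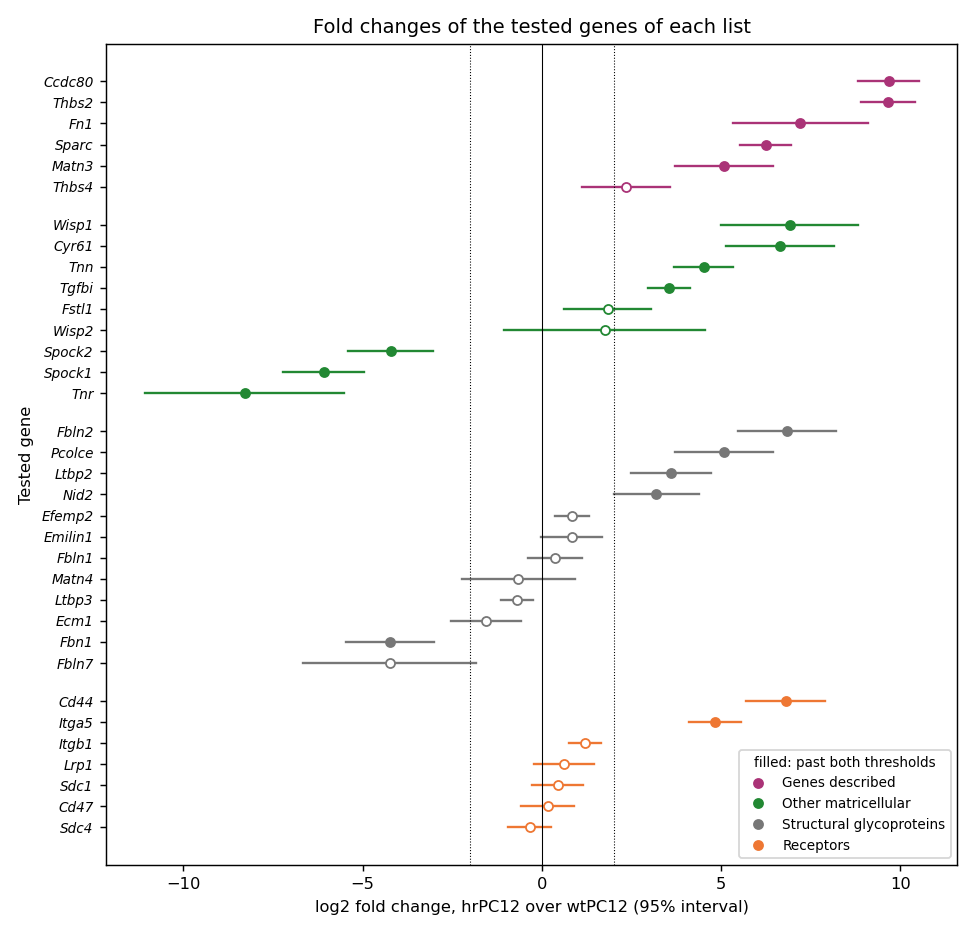
Log2 FC (hrPC12/wtPC12) with its 95% interval for each tested gene of the 4 lists, filled where both thresholds were passed. The 6 matricellular genes described here lie above 0, while the other matricellular genes range from −8.29 (Tnr) to 6.91 (Wisp1).

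Reads on genes numbered 20975027 and 21999191 in the wtPC12 libraries and 27246502 and 21634943 in those of hrPC12. Of the chromaffin markers that define PC12 cells, 9 were tested and 6 were downregulated in hrPC12, among them Th, Chgb and Scg2. Ddc (log2 FC 0.27), Slc18a2 (−0.10) and Hand2 (−0.85) did not pass. Beside this list and the marker lists below, the shares of all tested genes were 4.84% upregulated and 5.46% downregulated. Markers of fibroblasts, which also make these glycoproteins, were divided, though more of them rose than fell in hrPC12. Their summed normalized counts were 17929 to 19447 in wtPC12 and 103729 to 109307 in hrPC12, with Thy1 holding most of the former and Col3a1 most of the latter. Of 10 tested, 6 were upregulated (Col3a1, Vim, Col1a2, Pdgfrb, Col1a1 and S100a4, with log2 FC of 9.83, 9.50, 6.87, 4.97, 4.71 and 3.63). Fbn1 was the 1 downregulated, and Lum had no read in wtPC12. Vim, Col1a2 and Col1a1, with wtPC12 means of 2.77, 2.91 and 4.19 normalized counts, reached the filter on low counts through hrPC12 alone. The count of this list is therefore a description. Of the 3 not called, Pdgfra had a log2 FC of 0.57, Thy1 of −0.99 and Dcn of −3.10. The 12 leukocyte markers summed to 59.7 to 77.9 in wtPC12 and 468 to 539 in hrPC12, with Cd14 the one of 5 tested that was upregulated and most of the hrPC12 sum, while Cd3d had no read and Ptprc had at most 1 read in any library. Of the other 4 tested, which were not called, Cd68 had a log2 FC of 1.63, Spi1 of 2.36, Cd3e of 0.46 and Fcer1g of 0.15. Those of endothelial cells summed to 102 to 121 and 648 to 667, mostly Vwf, which was the one of 4 tested that was upregulated, with at most 2 reads of Pecam1 and none of Emcn. Of the other 3 tested, which were not called, Esam had a log2 FC of 2.28, Tek of 1.31 and Cdh5 of −0.45, and Tie1, untested, had no read in wtPC12 and 6.77 and 2.02 normalized counts in hrPC12. The part of other cell types in the results was not tested.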

How the data were processed

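RNA of 2 wtPC12 and 2 hrPC12 samples was sequenced by the authors as paired-end reads, aligned to the rat genome RGSC3.4/rn4 with TopHat and counted per gene. The submitters' processing notes name TopHat2 2.0.4, HTSeq 0.5.3 and DESeq 1.9.12. The deposited counts are raw, and the reads outside genes, in more than 1 gene or without a unique position, listed at the end of each file, were left out (37.9% to 41.3% of the reads accounted for lay on genes). A further deposited table of the authors' DESeq comparison (means, fold changes and p values) was not used.

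The test was edgeR 4.0.16 (limma 3.58.1, R 4.3.3) in place of DESeq, with DESeq2 1.42.0 as an alternative. Counts were scaled with TMM factors (0.942 to 1.05), and normalized counts are counts divided by the effective library size and multiplied by its mean. As in the study, genes with a mean under 5 normalized counts, or without a read in either clone, were left out. glmQLFit and glmQLFTest (legacy option on, tested on simulated data) gave the log2 FC, with the standard error taken from the F statistic. The common dispersion was 0.0745. With 2 libraries per clone an exact permutation test of 1 gene cannot go below p = 0.333. The counting intervals (Clopper-Pearson, 95%) and limits of 3 reads cover counting error only. Replicates were no duplicates (chi-square per degree of freedom 82.4 in wtPC12 and 59.4 in hrPC12). Whether the counting used strand is not given in the sources used here.

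The genes described and all lists were chosen with earlier results of these data known. All 7 genes with a row are named. Of the other lists, up to 4 called and 4 uncalled tested genes with the highest mean count were to be named. Spock1, Cyr61, Wisp1, Ltbp2, Matn4, Ecm1, Fbln7, Sdc4, the fibroblast markers Pdgfrb, Col1a1 and Col1a2 and the untested genes were named after their values were seen. Gene lengths were not used, so levels are compared within a gene.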

Additional observations from a re-analysis of the deposited data

How the results depend on the processing

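The log2 FC of the 6 tested genes kept its direction under each alternative in which it could be fitted, from 1.84 to 2.91 in Thbs4 and from 9.45 to 9.81 in Ccdc80. The number of the 6 upregulated was 5 or 6 with RLE factors, library totals, filterByExpr (with Postn as one of them), DESeq2, the legacy option off, a prior count of 2, a threshold of 0.05 on the adj. p value or of 1 on the log2 FC, and glmTreat, and 7 with every gene with a read, which brought in Postn. Over all tested genes 665 were higher and 749 lower. With every gene tested 1127 were higher, and with an adj. p under 0.05, 1088. That threshold gave 2 structural glycoproteins lower in place of 1. Leaving out 1 library, the fit took the lone library of a clone to vary like the others. Genes higher then ranged from 0 to 962 and genes lower from 0 to 859, the matricellular genes higher from 0 to 6, the other matricellular genes higher from 0 to 4 and lower from 0 to 3, the structural glycoproteins higher from 0 to 4 and lower from 0 to 1, and the receptors higher from 0 to 2. The counts of 0 all came from leaving out wtPC12 replicate 2, where edgeR gave a smallest adj. p of 0.01345 although 6798 genes had an unadjusted p under 0.05 and 4362 an adjusted p under 0.05. DESeq2 on these 3 libraries, added after seeing the data, called 913 higher and 732 lower, 4 of the matricellular genes among the former. Genes with few reads in wtPC12, such as Fn1, Matn3 and Postn, are limited by depth in the size of their fold change. No paired analysis was possible because the labels give the libraries of the clones no shared numbers, and those used here only name the libraries.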
